A study of Mus musculus with 6 samples.

Results

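The semaphorin, ephrin, netrin and Slit guidance system was described in 6 RNA-seq libraries of mouse basilar cartilage, taken at the spheno-occipital synchondrosis, a growth plate of the skull base that lies between neighbouring bones. Members were all rows whose gene symbol names a class 3 to 7 semaphorin, an ephrin, a Slit or a netrin, taken as ligands, or a plexin, an Eph receptor, a Robo, an Unc5 receptor, Dcc or neogenin (Neo1), taken as receptors. The rule found 68 of the 24346 genes listed, 35 ligands (20 semaphorins, 8 ephrins, 4 netrins and 3 Slits) and 33 receptors (14 Eph receptors, 9 plexins, 6 netrin receptors and 4 Robos). The 3 FP and 3 RR libraries, numbered 11, 14 and 16 in each group, were compared by the codes in their titles. The series text speaks of flat and round chondrocyte layers cut out by laser microdissection, but no label ties a code to a shape, so the codes are kept. No step that sorts cells by the reporter is named.

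Every library came from mice of genotype Gli1CreERT2; Tomato flox, in which the Gli1 gene drives a tamoxifen-inducible Cre and recombined cells gain a red reporter. Tamoxifen was injected at P3 (postnatal day 3) in all of them, so neither group is an untreated or wild-type control. Age at collection, sex and the number of animals per library are not stated in the labels, nor whether each library is from its own animal. The p-values therefore reflect only how these 6 samples vary, part of which may be technical. Values are FPKM (fragments scaled by transcript length and by the library's size), so levels can be compared between genes. In captured tissue, fewer cells of a type and less RNA per cell cannot be told apart.

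Guidance genes were first studied as the signals that steer growing axons and vessels. Semaphorins signal through plexins, often with neuropilins as co-receptors. Ephrins are held on the cell surface and signal in both directions with Eph receptors of a touching cell. Netrins bind Dcc, neogenin and the Unc5 receptors, with Unc5 receptors giving mainly repulsion, and Slits bind Robo receptors. In the skeleton, several of these families act at the boundaries between cell layers, in vessel ingrowth and between osteoblasts and osteoclasts.

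The libraries carried the RNAs of cartilage: Col2a1, the main cartilage collagen, stood between 38697 and 81873 FPKM. Of the 5 chondrocyte markers, Acan, Sox9 and Matn3 were higher in every FP library (limma adjusted p = 0.456, 0.216 and 0.206). Of the 5 osteoblast markers only Ibsp was (0.0571), and the others overlapped between groups. The part of these markers in the results was not tested. The value of 1 fragment on a transcript of 2000 bp, read from the steps of low values, was 0.128 to 0.299 FPKM, and the deepest library was 2.33 times as deep as the shallowest, RR 14, provided that no scaling between libraries had been applied. RR 14 also stood apart on the first principal component of all tested genes (76.9, against 9.11 to 19.5 in the other RR libraries and -38.5 to -32.3 in FP). Markers of other cell types were present at low to moderate summed levels in both groups. The 7 endothelial markers summed to 9.05 to 17.1 FPKM in FP, against 7.37 to 26.9 in RR, and the 7 Schwann cell and neuron markers to 15.2 to 41.2 in FP and 6.97 to 33.5 in RR. Sums of the 5 osteoclast markers were 11.7 to 112 in FP and 18 to 119 in RR, and those of the 6 macrophage markers 16.5 to 83.9 and 16.8 to 60.3. Sums of the 5 osteoblast markers were 274 to 940 FPKM in FP, against 141 to 1385 in RR, of the 5 perichondrial and fibroblast markers 32.4 to 79.8 and 26.4 to 77.7, of the 5 skeletal muscle markers 98.5 to 168 and 27.6 to 152, and of the 3 red cell markers 71.1 to 115 and 51.0 to 115. The red cell marker Hbb-bs was listed at 0.0228 to 0.0247 FPKM, under the value of 1 fragment on 2000 bp, while Hba-a1 was at 46.1 to 110 FPKM. The value listed for Hbb-bs is therefore not read as a level. The range of every sum overlapped between FP and RR.

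Most guidance genes were expressed at low levels. Of the 68 members, 10 had a mean over all libraries of at least 10 FPKM, 6 lay between 5 and 10, 37 between 1 and 5, and 15 under 1. The high members were mainly receptors: 9 of the 33 receptors but only 1 of the 35 ligands, Sema3d, reached 10 FPKM. The highest was Plxnb2, a receptor of class 4 semaphorins, at 35.4 ± 4.03 FPKM in FP, against 28.6 ± 4.96 in RR (SD, n = 3 each), followed by Neo1, a receptor of netrins and of repulsive guidance molecules, at 29.6 ± 9.76 and 25.9 ± 5.92. Neo1 was the higher of these genes in FP 11 and RR 11, and Plxnb2 in the other libraries. Among tested members, the median mean level was 2.43 FPKM for ligands and 3.66 for receptors, against 4.53 for all 14789 tested genes. Over all 68 members, including those under 1 FPKM, the order was reversed, at 2.05 FPKM for ligands and 1.78 for receptors.

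**Figure D1:**
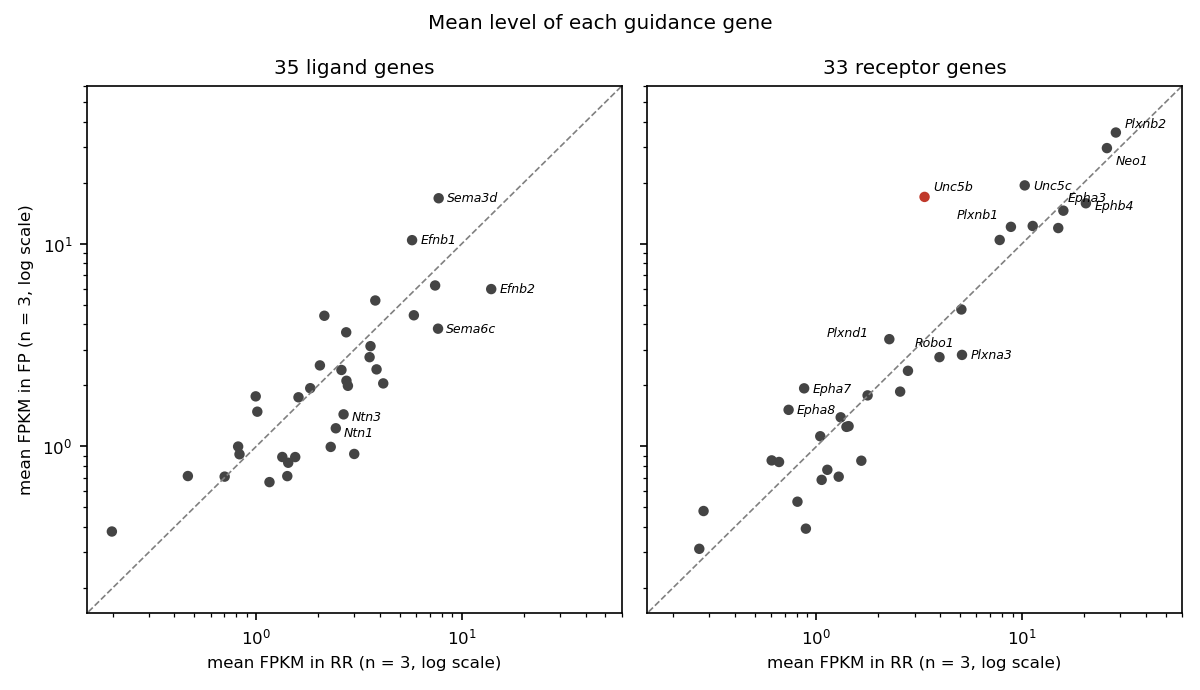
Mean FPKM of each guidance gene in FP (vertical axis, log scale) against RR (horizontal axis, log scale), n = 3 libraries each, with ligands on the left and receptors on the right. Each point is 1 gene, the dashed line marks equal levels, red marks the 1 gene past adjusted p of 0.05, and selected genes are named. Unc5b lies far above the line, at 17.0 FPKM in FP, against 3.36 in RR, and Efnb2 lies below it.

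In the comparison of FP with RR, 53 of the 68 members had a mean of at least 1 FPKM and were tested, 29 ligands and 24 receptors. A single member passed, the receptor gene Unc5b, which was higher in FP. It made up 1 of 24 tested receptors, with 0 of 29 tested ligands, in a fit where 0.967% of all genes passed in either direction and 0.554% as higher in FP. At an unadjusted p under 0.05, 3 ligands (Efnb2, Efnb1 and Sema3d) and 2 receptors (Unc5b and Unc5c) were found, 5 of 53 members, against 10.3% of all tested genes. The median log2 change, FP minus RR on the log2(FPKM + 1) scale, was -0.27 for ligands, with 10 above and 19 below 0, and 0.05 for receptors, with 13 above and 11 below 0. It was 0.02 for all tested genes, of which 82 passed as higher in FP and 61 as lower. With libraries rescaled outside the 100 highest genes, an alternative chosen after seeing the data, this split was 73 and 84, and the median of all genes -0.13.

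Groups did not overlap in 14 of the 53 tested members, 7 with all FP libraries above all RR libraries and 7 the other way round, against 16% of all tested genes (8.74% and 7.28% in each direction). By role, 5 of the 7 with RR above were ligands (Efnb2, Ntn1, Ntn3, Sema5a and Sema6d) and 5 of the 7 with FP above were receptors (Unc5b, Unc5c, Plxnd1, Epha7 and Epha8). The other members with groups apart were the ligands Efnb1 and Sema3d, higher in FP, and the receptors Plxna3 and Robo1, higher in RR.

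**Figure D2:**
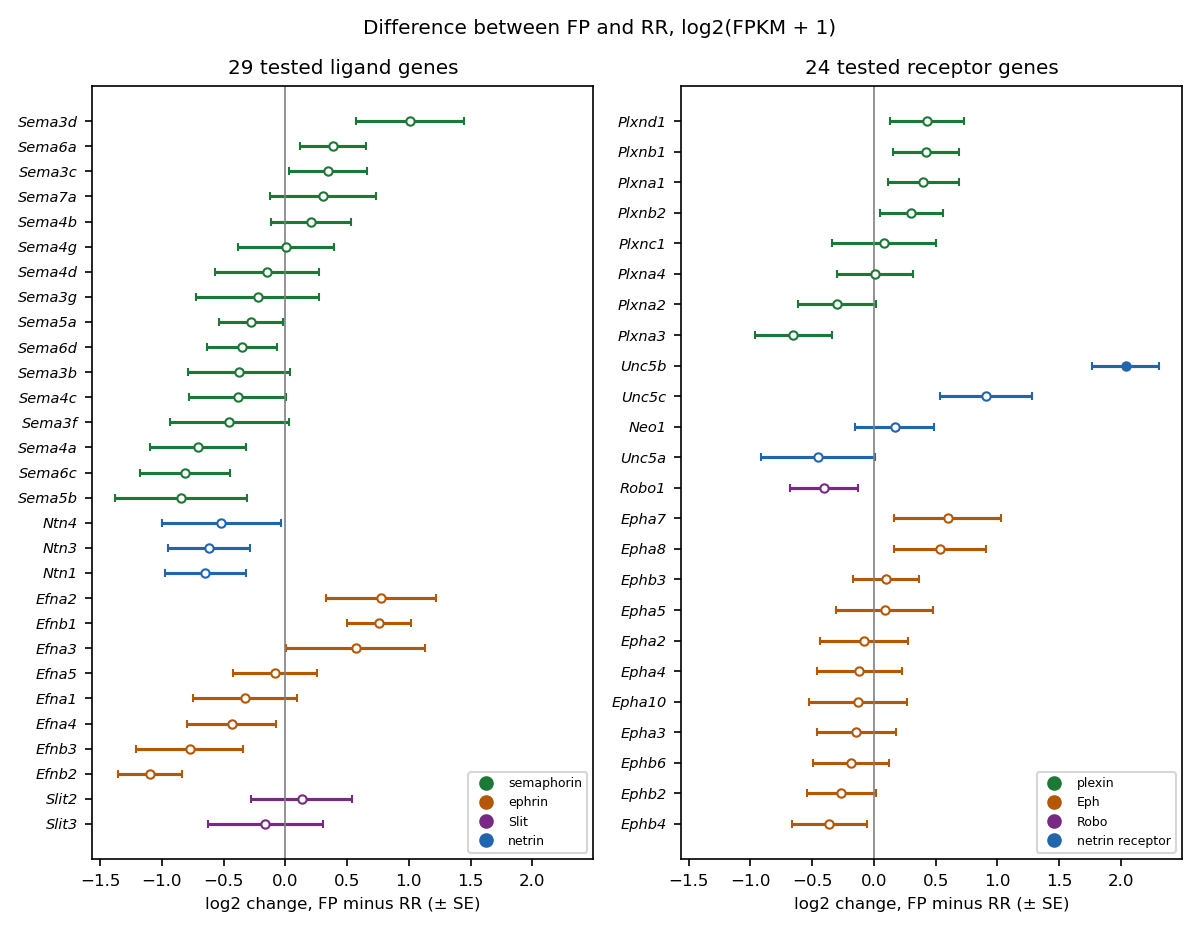
Log2 change (FP minus RR, log2(FPKM + 1), horizontal axis) with its limma standard error for each of the 29 tested ligands (left) and 24 tested receptors (right), coloured by family. Filled points passed adjusted p of 0.05, which only Unc5b did, at 2.04, and Efnb2 has the lowest value, at -1.10.

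Netrin receptors included the single member that passed. Unc5b, a netrin receptor of vessels and neurons with a death domain in its intracellular part, lies on chromosome 10 of mm10 (60762593 to 60831581, minus strand). It was at 13.4, 17.0 and 20.6 FPKM in FP libraries 11, 14 and 16 and at 3.65, 2.64 and 3.78 in RR. All FP libraries were high, far above the highest RR library. The means were 17.0 ± 3.61 and 3.36 ± 0.626 FPKM (SD, n = 3 each), 5.07-fold higher in FP, with a log2 change of 2.04 ± 0.27 (SE, limma adjusted p = 0.0138). Among the 33 receptors, Unc5b had the 4th highest mean level in FP and the 13th in RR. On its longest annotated transcript these levels stand, under the same proviso on scaling, for roughly 196 to 324 fragments in FP and 25.9 to 63.2 in RR. Leaving out FP 14 lost the call at a log2 change of 2.03 (adjusted p = 0.0628), as did leaving out FP 16 (1.90, adjusted p = 0.0850) or RR 14 (1.91, adjusted p = 0.0557). Of the 7 endothelial markers none passed, Esam and Egfl7 had estimates above 0 (0.35 and 0.19) and the other 5 below 0, from -0.77 (Kdr) to -0.05 (Emcn). The part of vessels in the Unc5b difference was not tested.

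Unc5c, a paralog of Unc5b and also a netrin receptor, was at 26.0, 16.4 and 15.7 FPKM in FP 11, 14 and 16, against 15.1, 5.60 and 10.3 in RR. The groups were apart by a narrow margin, FP 16 against RR 11, and the log2 change of 0.91 ± 0.37 did not pass (limma adjusted p = 0.450) and was 0.56 without RR 14. GENCODE lists antisense genes within Unc5c, and the sources do not say whether counting used strand. Neo1 was at 40.5, 21.7 and 26.7 FPKM in FP, against 30.8, 19.3 and 27.5 in RR, with library 11 highest and library 14 lowest in each group and groups that overlapped (log2 change 0.17 ± 0.32, and -0.045 with quantile normalization). Unc5a, at 0.850 ± 0.446 and 1.65 ± 1.26 FPKM, did not pass either (adjusted p = 0.826). Dcc, the netrin receptor of commissural axons, and Unc5d stayed under the filter, at 0.520 to 1.18 and 0.489 to 1.95 FPKM over the 6 libraries. The summed level of the 6 netrin receptors was 57.2 to 83.4 FPKM in FP, against 33.3 to 51.7 in RR, without overlap, and without Unc5b the sums overlapped (40.2 to 70.0 and 30.7 to 48.0).

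Netrins, the ligands of these receptors, were low. Ntn1, the classic secreted netrin, was at 0.750, 1.24 and 1.70 FPKM in FP, against 2.60, 2.22 and 2.50 in RR, so that every RR library was higher. Its log2 change of -0.65 ± 0.33 did not pass (limma adjusted p = 0.571). The level of Unc5b relative to Ntn1 within a library was 17.9, 13.7 and 12.2 in FP, against 1.41, 1.19 and 1.51 in RR. This ratio does not depend on scaling between libraries, and was chosen after its values were seen. Unc5b and Ntn1 were already apart in opposite directions. The exact two-sided permutation p was therefore fixed at 0.1, the smallest that 3 against 3 libraries allow, and adds no support. Under the same proviso on scaling, Ntn1 stood for only roughly 14.3 to 26.6 fragments in FP. Ntn3 was at 0.933, 2.24 and 1.14 FPKM in FP, against 2.46, 2.50 and 3.02 in RR, again with every RR library higher (log2 change -0.62 ± 0.33, adjusted p = 0.615). Ntn3 overlaps Tbc1d24 on the same strand, which stood at 2.59 ± 0.182 FPKM in FP, against 5.07 ± 0.558 in RR, so reads of the pair may be shared. Ntn4, a basement membrane netrin, was at 0.209 to 1.52 FPKM in FP, against 0.570 to 1.93 in RR, and Ntn5 was at 0 in RR 14 and RR 16 and at most 0.778 elsewhere. The summed netrins reached 2.04 to 4.68 FPKM in FP, against 6.09 to 7.40 in RR, without overlap. Ntn3, whose reads may be shared, enters these sums. Without Ntn3 the sum in FP 16 lies above that in RR 16, so the groups overlap.

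The promoters of Unc5b, of its paralog Unc5c and of Efnb2, the tested ligand with the smallest p, are shown so that the starts of the receptor that passed and of the leading ligand can be compared. Each is the 250 bases before the RefSeq transcription start on GRCm38.p6, 5′ to 3′ on the gene's strand: Unc5b chr10:60831582-60831831 (minus), Unc5c chr3:141465314-141465563 (plus) and Efnb2 chr8:8661243-8661492 (minus). GENCODE starts Unc5c at 141465216, so by that annotation the Unc5c window lies inside the gene. The Unc5b and Efnb2 windows lie directly before the GENCODE starts of their genes. Capitals mark matches on either strand to any of 5 motifs, which did not overlap one another here: the GC box GGGCGG, the TATA box TATAAA, the GLI site GACCACCCA, the RUNX core TGTGGT and the SOX half-site ACAATG.
Unc5b: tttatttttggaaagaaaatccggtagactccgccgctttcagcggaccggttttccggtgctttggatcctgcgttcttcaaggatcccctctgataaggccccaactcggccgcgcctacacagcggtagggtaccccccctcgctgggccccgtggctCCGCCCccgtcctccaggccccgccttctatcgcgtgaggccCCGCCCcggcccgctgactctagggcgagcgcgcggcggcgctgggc
Unc5c: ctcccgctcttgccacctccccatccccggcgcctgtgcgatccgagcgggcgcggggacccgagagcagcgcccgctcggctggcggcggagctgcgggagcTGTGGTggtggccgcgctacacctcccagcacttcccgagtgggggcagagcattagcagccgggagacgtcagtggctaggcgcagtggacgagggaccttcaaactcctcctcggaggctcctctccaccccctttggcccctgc
Efnb2: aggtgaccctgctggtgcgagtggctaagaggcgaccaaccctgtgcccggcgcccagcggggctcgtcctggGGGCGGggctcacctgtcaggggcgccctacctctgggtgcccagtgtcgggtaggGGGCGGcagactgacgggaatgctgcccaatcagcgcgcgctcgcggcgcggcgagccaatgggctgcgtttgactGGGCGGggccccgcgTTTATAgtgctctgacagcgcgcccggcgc
The sequences were rich in G and C, at 66.8%, 71.2% and 72%, against a median of 52.4% over 32851 RefSeq promoter windows of the same length. Unc5b held 2 GC boxes, starting 89 and 47 bases before the start, and Unc5c held 1 RUNX core. Efnb2 held 3 GC boxes. It also held TTTATA, starting 30 bases before the start, which matches the TATA box on the opposite strand only. A GC box is present in 32.7% of all windows, a TATA box in 12.4%, a GLI site in 0.225%, a RUNX core in 14.05% and a SOX half-site in 10.7%. Among the 58 members with a listed promoter, 43 held a GC box in any of their windows and 2 a TATA box, on either strand. Likewise, 0 held a GLI site, 9 a RUNX core and 7 a SOX half-site. Some members have more than 1 window, so these counts of genes cannot be set directly against the shares of windows. A match describes letters in this window only.

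**Figure D3:**
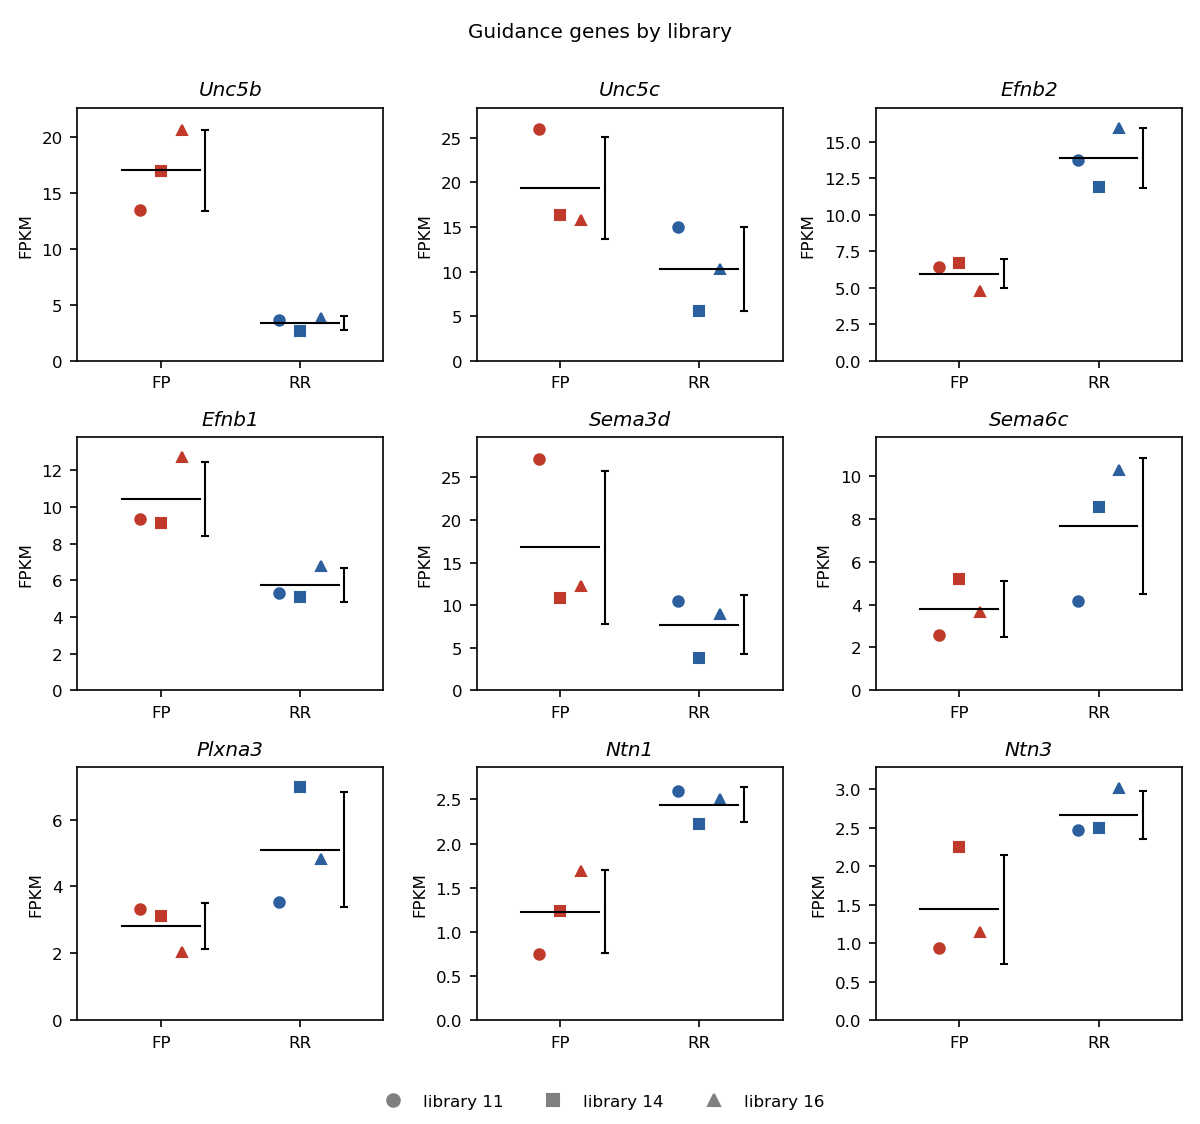
FPKM (vertical axis, from 0) of 9 guidance genes in each FP (red) and RR (blue) library, with marker shapes for library numbers 11, 14 and 16. Lines are means and the bars beside them the SD over 3 libraries. Unc5b is high in all FP libraries, Efnb2 in all RR libraries, and for Sema3d FP 11 lies far above the rest at 27.1 FPKM.

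Ephrins of the B class are transmembrane ligands of EphB receptors, and Efnb2 and Efnb1 had estimates of opposite sign. Efnb2, the arterial ephrin and a partner of Ephb4, was at 6.44, 6.67 and 4.80 FPKM in FP 11, 14 and 16, against 13.8, 11.9 and 16 in RR. All RR libraries were high, and the mean was 2.33-fold higher in RR (13.9 ± 2.03 against 5.97 ± 1.02 FPKM, SD, n = 3 each). The log2 change of -1.10 ± 0.26 had an unadjusted p of 0.00232 but did not pass over all genes (limma adjusted p = 0.129). Efnb1, the ephrin whose loss disturbs the skull sutures, was at 9.35, 9.14 and 12.7 FPKM in FP, against 5.33, 5.07 and 6.78 in RR. Every FP library was higher, at a log2 change of 0.76 ± 0.26 that did not pass (adjusted p = 0.333).

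Within each library the level of Efnb2 relative to Efnb1 was 0.689, 0.730 and 0.377 in FP, against 2.59, 2.35 and 2.36 in RR, so Efnb1 was the higher of the pair in every FP library and Efnb2 in every RR library. An exact two-sided permutation test of this log ratio gave p = 0.1, the smallest that 3 against 3 libraries allow. It was 0.1 after Benjamini-Hochberg adjustment over the 4 ratios computed, all chosen after their values were seen. As Efnb2 and Efnb1 were already apart in opposite directions, this p was fixed in advance and adds no support. Among the 35 ligands, Efnb2 had the highest mean level in RR and the 4th highest in FP. Efnb3 was lower, at 1.61, 0.152 and 1.22 FPKM in FP, against 1.98, 3.36 and 1.57 in RR, with groups that overlapped (adjusted p = 0.633). Only Tek of the 7 endothelial markers was also higher in every RR library (limma adjusted p = 0.711). It was at 0.540 to 1.03 FPKM in FP, against 1.54 to 1.82 in RR. Estimates were below 0 for 5 of these markers and above 0 for 2, and their sums overlapped. The part of vessels in the Efnb2 difference was not tested.

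Ephrins of the A class are anchored in the membrane by a lipid and bind EphA receptors. None of the 5 passed, at log2 changes from -0.44 (Efna4) to 0.78 (Efna2), and their groups overlapped. Efna1 was the highest of them at 6.22 ± 3.81 FPKM in FP, against 7.42 ± 2.41 in RR, and Efna2 was at 4.41 ± 2.18 and 2.15 ± 1.35. Efna5 was at 3.12 ± 0.0616 and 3.60 ± 1.64 FPKM, and Efna4 at 2.40 ± 0.412 and 3.85 ± 1.83. Efna3 was listed at 0 in RR 11 and at 0.521 to 3.27 FPKM in the other libraries.

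Eph receptors, the tyrosine kinases that bind ephrins, included 4 of the 10 members at or above 10 FPKM, and none of the 11 tested passed. Ephb4, the venous partner of Efnb2, was at 10.9, 18.3 and 18.3 FPKM in FP, against 16.1, 19.8 and 25.4 in RR, with groups that overlapped (log2 change -0.36 ± 0.30, limma adjusted p = 0.774). That change was -0.13 without FP 11 and -0.20 without RR 16. Epha3 was at 14.6 ± 5.06 and 15.9 ± 3.85 FPKM, Ephb2 at 11.9 ± 0.086 and 15 ± 4.76, and Ephb3 at 12.2 ± 2.55 and 11.3 ± 1.66. The groups of each of these receptors overlapped. Epha4 followed at 4.74 ± 2.05 and 5.07 ± 1.41 FPKM.

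The lower Eph receptors included the 2 with groups apart. Epha8 was at 1.84, 1.22 and 1.49 FPKM in FP, against 0.622, 0.946 and 0.628 in RR, and Epha7 at 1.23, 1.19 and 3.38 in FP, against 1.18, 1.04 and 0.391 in RR. For Epha7, FP 14 and RR 11 all but met, and neither gene passed (adjusted p = 0.716 and 0.727). The log2 change of Epha7, 0.60, was 0.27 without FP 16 and 0.40 without RR 16. Ephb6, a receptor without kinase activity, was at 2.36 ± 0.773 and 2.79 ± 0.669 FPKM, and Epha2, Epha5 and Epha10 had means of 1.25 to 1.43 FPKM in each group. Epha1, Epha6 and Ephb1 stayed under the filter, with Epha1 and Epha6 listed at 0 in FP 14. The sum of all 14 Eph receptors was 65.9 to 74.3 FPKM in FP, against 71.3 to 85.8 in RR.

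Semaphorins were the largest ligand family, and none of the 16 tested passed, at a median log2 change of -0.25. Sema3d, a secreted semaphorin that acts on endothelial and neural crest cells, was the highest ligand in FP. It was at 27.1, 10.9 and 12.3 FPKM in FP 11, 14 and 16, against 10.4, 3.80 and 8.92 in RR. FP 11 was far above the rest and FP 14 lay just above RR 11, and the log2 change of 1.01 ± 0.44 did not pass (limma adjusted p = 0.479). Without FP 11 it was 0.62 and without RR 14 it was 0.63. Sema3c, the other class 3 member above 2 FPKM, was at 3.66 ± 0.667 and 2.74 ± 1.02 FPKM.

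The remaining secreted semaphorins were scarce. Sema3b, Sema3f and Sema3g had means of 0.830 to 0.887 FPKM in FP, against 1.34 to 1.55 in RR. Sema3a, known as a bone-protective ligand and a repellent of sensory axons, was at 0.556, 2.06 and 0.377 FPKM in FP, against 0.580, 1.21 and 0.664 in RR. It was under the filter, as was Sema3e at 0.0946 to 1.10 FPKM.

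None of the tested membrane-bound semaphorins passed. Of all 16 tested semaphorins, secreted ones included, 10 had estimates below 0 and 6 above. Over all tested genes 7155 were below and 7634 above. Sema6c, a class 6 member, was at 2.60, 5.19 and 3.64 FPKM in FP, against 4.16, 8.55 and 10.3 in RR, with RR 11 inside the FP range (log2 change -0.81 ± 0.36, limma adjusted p = 0.502). Sema6d was at 2.50, 1.80 and 1.67 in FP, against 2.97, 2.75 and 2.66 in RR, and Sema5a at 2.74, 2.94 and 2.59 in FP, against 4.17, 3.22 and 3.29 in RR. Both had every RR library higher by small margins, with adjusted p of 0.766 and 0.814. Sema6a went the other way by its estimate, at 5.25 ± 0.762 FPKM in FP, against 3.79 ± 0.811 in RR (adjusted p = 0.716). Sema4a, a class 4 semaphorin of immune cells, was at 2.05 ± 0.793 and 4.15 ± 1.94 FPKM, Sema4c at 4.44 ± 2.62 and 5.84 ± 2.08, and Sema4d, a ligand of Plxnb1 made by osteoclasts, at 2.11 ± 0.425 and 2.75 ± 1.81. Sema4b, Sema4g and the lipid-anchored Sema7a had means of 1.01 to 2.51 FPKM with groups that overlapped, and Sema4f and Sema6b stayed under the filter. The high mean of Sema5b in RR, 3.0 ± 2.95 FPKM, came from RR 16 at 6.36, with the other RR libraries at 1.77 and 0.858. The summed semaphorins overlapped between groups, 47.2 to 61.1 FPKM in FP, against 51.2 to 64.5 in RR.

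Plexins, the semaphorin receptors, were led by Plxnb2, at 33.0, 33.1 and 40.0 FPKM in FP, against 24.9, 26.7 and 34.2 in RR, where RR 16 lay inside the FP range. Plxnb1 was at 9.97, 13.8 and 12.6 FPKM in FP, against 7.68, 11.1 and 7.69 in RR (log2 change 0.42 ± 0.27, limma adjusted p = 0.690), and Plxna1 at 10.4 ± 1.77 and 7.79 ± 2.36. Plxnd1, a plexin of vessels and a direct receptor of Sema3e, was at 2.89, 3.01 and 4.25 FPKM in FP, against 1.52, 2.55 and 2.72 in RR, each FP library higher. Its log2 change was 0.43 ± 0.30 (adjusted p = 0.716), and 0.26 without RR 11. Plxna3, a receptor of class 3 semaphorins together with neuropilins, was the one plexin with every RR library higher, at 3.32, 3.13 and 2.04 FPKM in FP, against 3.54, 6.97 and 4.81 in RR. Its log2 change was -0.65 ± 0.31 (adjusted p = 0.540). Plxna2, Plxna4 and Plxnc1 had means of 1.04 to 2.55 FPKM with groups that overlapped, and Plxnb3 was at 0.108 to 0.458 FPKM and was not tested. Summed over the 9 plexins the level was 63.6 to 73.5 FPKM in FP, against 50.4 to 63.5 in RR, so that FP 11 and RR 16 all but met.

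Neither of the 2 tested Slits nor the 1 tested Robo passed. Slit3 was at 3.27, 3.25 and 0.629 FPKM in FP, against 3.58, 2.89 and 1.31 in RR, and Slit2 at 2.15, 2.28 and 1.38 in FP, against 2.72, 2.2 and 0.573 in RR. In both genes library 16 was the lowest of its group, and their groups overlapped (limma adjusted p = 0.959 and 0.962). Slit1 was at 0.532 to 1.0 FPKM over all libraries and was not tested. Robo1, the widely expressed Slit receptor, was at 3.29, 2.80 and 2.18 FPKM in FP, against 3.71, 4.85 and 3.33 in RR. RR 16 exceeded FP 11 by a small margin, so the groups were apart, with a log2 change of -0.40 ± 0.28 (adjusted p = 0.716). Robo2, Robo3 and the endothelial Robo4 had means of at most 0.888 FPKM in each group.

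Of a list of 69 co-receptors, other ligands and signalling partners of these families, 64 were tested, 0 were higher in FP and 2 lower, against 0.412% of all genes lower in FP. Flrt1, one of the FLRT membrane proteins that bind Unc5 receptors, was at 2.24, 4.94 and 4.5 FPKM in FP, against 21.9, 27.8 and 34.4 in RR. All RR libraries were high, and the mean was 7.21-fold higher there, with a log2 change of -2.60 ± 0.32 (limma adjusted p = 0.0105). Flrt1 overlaps Macrod1 on the opposite strand (chromosome 19, 7092001 to 7105729), and Macrod1 itself was at 2.15 ± 0.850 FPKM in FP, against 5.47 ± 2.90 in RR, under Flrt1 in every RR library. The Flrt1 call held whichever single library was left out (adjusted p up to 0.0463), and was lost without both libraries numbered 14 (0.0947) or 16 (0.207). Flrt2 was at 4.25 ± 0.767 and 6.77 ± 1.01 FPKM and Flrt3 at 2.11 ± 0.879 and 3.82 ± 2.03, and neither passed (adjusted p = 0.512 and 0.694).

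The second partner gene that passed was Arhgef15, an exchange factor for RhoA that acts downstream of Eph receptors and is also known from vessels. It was at 1.99, 1.75 and 2.98 FPKM in FP, against 8.74, 8.55 and 10.003 in RR, with every RR library high and a log2 change of -1.66 ± 0.26 (limma adjusted p = 0.0279). The call was lost whichever single library was left out (adjusted p from 0.0812 to 0.125), at log2 changes from -1.81 to -1.55. None of the 7 endothelial markers passed. Estimates were below 0 for 5 of them, from -0.77 (Kdr) to -0.05 (Emcn), and above 0 for Esam and Egfl7 (0.35 and 0.19). Only Tek had groups apart, with every RR library higher, and the summed markers overlapped. The part of vessels in the Arhgef15 difference was not tested. Ntng2, a lipid-anchored relative of the netrins with other binding partners than the classic netrin receptors, was at 7.49, 11.6 and 9.43 FPKM in FP, against 20.4, 35.3 and 29.5 in RR (log2 change -1.47 ± 0.30). It missed the threshold (adjusted p = 0.0719), and passed with the filter at 5 FPKM (0.0401) and with rescaled libraries (0.0465).

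Neuropilins, the co-receptors of class 3 semaphorins, had estimates of opposite sign. Nrp1 was at 9.96, 6.01 and 7.03 FPKM in FP, against 4.97, 3.27 and 5.12 in RR, and Nrp2 at 9.77, 6.31 and 3.38 in FP, against 14.6, 13.3 and 11.2 in RR. Neither passed (log2 changes 0.66 ± 0.29 and -0.99 ± 0.35, limma adjusted p = 0.484 and 0.354), although groups were apart in both. Without FP 16 the log2 change of Nrp2 was -0.65. Nrp2 relative to Nrp1 was 0.981, 1.051 and 0.480 in FP, against 2.94, 4.08 and 2.18 in RR. The exact two-sided permutation p was 0.1, the smallest possible, and 0.1 after adjustment over the same 4 ratios. As Nrp1 and Nrp2 were already apart in opposite directions, this p was fixed in advance and adds no support. Of the Slit and Robo partners, Srgap2, a GTPase-activating protein that binds Robo, was at 22.4, 22.6 and 20.3 FPKM in FP, against 9.31, 7.97 and 8.92 in RR (log2 change 1.23 ± 0.23, limma adjusted p = 0.0581). Gpc1, a glypican that binds Slits, was at 143, 132 and 166 FPKM in FP, against 46.6, 37.1 and 70.8 in RR (1.54 ± 0.31, adjusted p = 0.0683). Both had every FP library high and missed the threshold, and both passed with library weights (0.0470 and 0.0407). Srgap2 also passed with the filter at 5 FPKM (0.0263) and Gpc1 with rescaled libraries (0.0464). Of the semaphorin and plexin partners the smallest p was that of Rras2, a small GTPase, at 5.06 ± 1.17 and 2.22 ± 0.951 FPKM (adjusted p = 0.333).

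**Figure D4:**
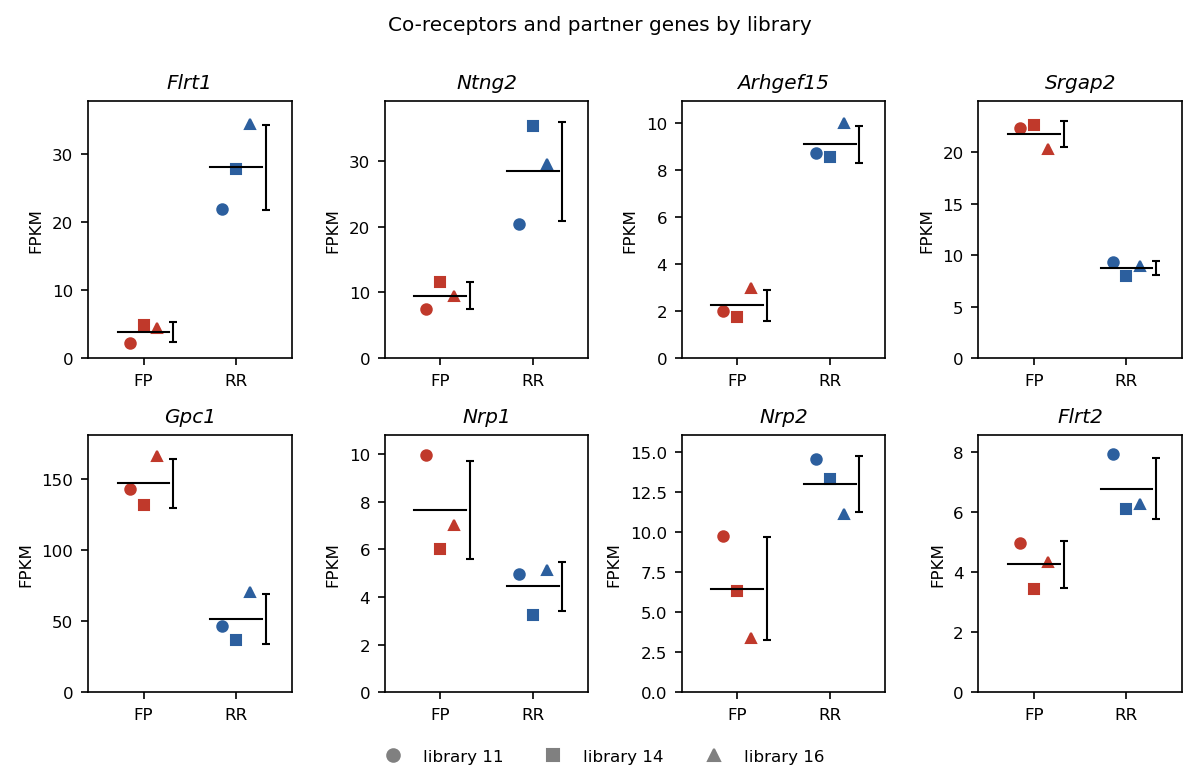
FPKM (vertical axis, from 0) of 8 co-receptors and partner genes in each FP (red) and RR (blue) library, marker shapes as library numbers, lines for means and bars for the SD over 3 libraries. Flrt1 and Arhgef15 passed the test and are high in all RR libraries, at 21.9 to 34.4 and 8.55 to 10.003 FPKM.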

How the data were processed

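RNA was taken from laser-microdissected frozen sections, and libraries were made with a total-RNA kit for very small inputs, per the labels' protocols. The authors deposited 1 FPKM value per gene symbol and library, per the file headers. The submitters' processing notes name build mm10 and, without their roles, Cuffdiff 2.2.1, TopHat2 2.1.1, SAMtools 0.1.18 and Bowtie2 2.2.8. Strand use, gene models and scaling across libraries were not given in the sources used here. Total fragments are unknown, and a listed 0 may be an estimate that failed, so such genes are given by library. Steps of 1 fragment were read from genes with a single GENCODE M21 transcript of 1500 to 3000 bp, where 69.6% to 73.1% of low values were whole within 0.1 fragments.

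Values were tested as log2(FPKM + 1), which understates the change of low genes, by a linear model in limma 3.58.1 (R 4.3.3) with a trended eBayes prior, FP minus RR, two-sided. All 14789 genes averaging 1 FPKM or more entered, p-values were Benjamini-Hochberg adjusted over all of them, and the threshold was an adjusted p of 0.05. Gene positions and overlaps were read from GENCODE M21. The fit was also run on simulated data with independent noise and no outlying library. Those settings differ from these data, so that run is not used as support. The members, gene lists, naming rule and tests were chosen with earlier results of these data known. Named members were those past the threshold, the 2 highest and the 2 with the smallest p of each family, and those of at least 2 FPKM with groups apart. Of the partner lists, genes past the threshold and the 3 with the smallest p of each list were named. Other genes were named after their values were seen. The partner symbol Hjv was matched through its RefSeq synonym Hfe2. Alternatives were another pseudocount, other filters, 3 other scalings, no trend, library weights, the library number as a block, and fits without libraries. No protein sequences were used here.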

Additional observations from a re-analysis of the deposited data

How the results depend on the processing

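Across 18 alternatives the count of ligands past the threshold was 0 in each, and 32 of the 36 named genes kept the sign of their log2 change wherever they were tested. Fits that change only the filter, the trend or the block leave a log2 change as it is. Where groups do not overlap, leaving out libraries cannot reverse the sign. Much of the count of kept signs was therefore fixed in advance. The count of receptors, 1 (Unc5b), ranged from 0 to 1 when single libraries were left out, and was 0 without both libraries of any 1 number. Over the alternatives the log2 change of Unc5b was 1.89 to 2.304 and its limma adjusted p 0.00785 to 0.258; for Efnb2 these were -1.27 to -0.87 and 0.0573 to 0.646. All tested genes gave 143 calls, 83 without the intensity trend, 42 to 85 without single libraries, and 42, 8 and 20 without both libraries numbered 11, 14 and 16. Partner genes gave 2 calls. That count was 1 with no filter or no trend, 4 with the filter at 5 FPKM, library weights or rescaling, 1 without any single library or both numbered 11, and 0 without both numbered 14 or 16. Flrt1 lost its call without both libraries numbered 14 or 16 (adjusted p = 0.0947 and 0.207), and Arhgef15 also with no filter (0.0603) and no trend (0.0534). Signs reversed for Epha3 (0.064 without FP 16, 0.020 without RR 14, 0.060 without both 14), Neo1 (-0.045 with quantile normalization, -0.0049 rescaled, -0.076 without FP 11, -0.022 without RR 14), Slit2 (-0.25 without RR 16, -0.10 without both 16) and Slit3 (0.30 without FP 16, 0.043 without RR 11, 0.012 without both 16). Without single libraries the values spanned -0.39 to 0.064 for Epha3, -0.076 to 0.36 for Neo1, -0.25 to 0.37 for Slit2 and -0.45 to 0.30 for Slit3. Rescaling outside the 100 highest genes was chosen after seeing the data. Fits with fewer libraries have less power by construction, and the cause of the other changes was not tested.

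With the library number as a replicate block, all genes gave 271 calls, partners 5, receptors 1 and ligands 0. Deviations of same-numbered libraries correlated at r = 0.319, 0.185 and 0.089 for 11, 14 and 16. Between FP and RR libraries of different numbers r was lower, at -0.224 to 0.046. The labels do not say what the number marks, and the main fit left it out. If the number does pair the libraries, the main fit ignores that pairing. Ntng2, Srgap2 and Gpc1 passed with the block (limma adjusted p = 0.0184, 0.0370 and 0.0184). Depth limits the low members: in RR 14, 1 fragment on a transcript of 2000 bp is 0.299 FPKM.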

Other observations

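Several partner genes of these families were expressed well above most ligands and receptors, without a difference past the threshold. Ngef, an exchange factor that binds EphA receptors, was at 46.3, 70.2 and 76.2 FPKM in FP, against 40.5, 47.9 and 82.1 in RR. Farp1, an exchange factor that acts with plexins, was at 43.8 ± 8.47 FPKM in FP, against 38.6 ± 11.5 in RR (SD, n = 3 each). Rgma, a ligand of Neo1, was at 14.2 ± 3.30 and 9.37 ± 3.59 FPKM, and Rgmb, its relative, at 7.29 ± 2.40 and 9.53 ± 3.74.

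Inppl1, a lipid phosphatase that binds Epha2, was at 15.4 ± 4.13 FPKM in FP, against 26.2 ± 10.9 in RR, and Sipa1l1, a GTPase-activating protein, at 22.4 ± 3.26 and 15.9 ± 5.36. Dpysl3, of the collapsin response mediators, was at 7.21 ± 3.96 and 3.47 ± 2.57 FPKM, with library 11 highest in each group. Rras, a small GTPase that plexins inactivate, was at 5.27, 1.23 and 2.70 FPKM in FP, against 4.71, 5.02 and 5.50 in RR. None of these 4 genes passed (limma adjusted p = 0.598, 0.657, 0.565 and 0.621). The ratio of Unc5b to Unc5c within a library was 0.516, 1.03 and 1.31 in FP, against 0.243, 0.471 and 0.368 in RR (exact two-sided permutation p = 0.1, the smallest possible, and 0.1 after adjustment over 4 ratios). It was chosen after its values were seen.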
